A study of Danio rerio with 49 samples.

Results

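A set of 1417 genomic windows was examined in which replication in zebrafish embryos homozygous for a mutant allele of *rif1* was earlier than in wild type at 24 hours post fertilisation (hpf), while the genotypes lay close together at both preceding stages. Timing was read as a z-score per window, with higher values for earlier replication relative to the rest of the same library. The windows were chosen by measured values: a window belonged to the set when the mean z-score of the *rif1* mutant minus that of wild type was above 0.8 at 24 hpf and within 0.3 of 0 at both Shield and Bud. The set held 1.18% of the 120059 windows with a profile, 8.37% of the 16926 windows past 0.8 at 24 hpf, and 5.83% of the 24285 windows within 0.3 of 0 at Shield and Bud. Because these z-scores chose the windows, the genotype differences at Shield, Bud and 24 hpf, and what follows arithmetically from them, are given here as a description and support nothing. The rule made no contrast of the genotypes at the earliest stage or between G1 counts, and only calls in these contrasts are read as tests. Neither is fully independent of the rule, because the G1 counts are the denominator of every profile and each genotype's profiles share that reference at all stages. The error of limma at the earliest stage also leaves out the error of that reference, so calls there are read with that limit.

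The zebrafish belonged to the Tab5 strain and were either wild type (WT) or carried the omf201 allele of *rif1* on both copies (omf201/omf201, called omf201 below). DNA came from pools of whole embryos, unsorted, before the mid-blastula transition (preMBT, 2 to 2.5 hpf, 3 libraries per genotype) and at Shield (6 hpf, 6 WT and 5 omf201 libraries). At Bud (10 hpf) and 24 hpf, nuclei of whole embryos were sorted by DNA content into S and G1 fractions, with 4 libraries per genotype and fraction. The labels' protocol for sorting names a later age for the last stage, and the label of 24 hpf is used here. Every profile averages over all cell types of the embryo, so a shift in a few cell types and a smaller shift in all of them cannot be told apart, and Bud differs from Shield in the sorting as well as in age. At Shield, 3 pairs of libraries differed by no more than sampling noise and were counted as 1 sample each, which left 4 samples per genotype. The preMBT libraries of a genotype also differed only by about sampling noise, so the spread at that stage may be technical, and for no stage do the labels say how many separate spawnings the libraries represent. Depth was 5.09 to 32.2 M (mega) counts per library over windows that do not overlap. The omf201 genotype was taken from the labels and was not checked here.

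Rif1 is a large chromosomal protein that brings protein phosphatase 1 to replication origins. There the phosphatase removes the activating phosphates that the kinase Cdc7 with Dbf4 places on the MCM helicase, so that origins bound by Rif1 fire late. In yeast and mammalian cells, loss of Rif1 advances many late domains and delays some early ones. In early zebrafish embryos, cell cycles are short and the difference between early and late domains is built up during gastrulation and after it.

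The windows, most of them 60 kb wide with centres 10 kb apart, overlap and share reads. Joined where they overlap or touch, they made 149 regions on 24 of 25 chromosomes, 22.67 Mb in all, with none on chromosome 20. The median region spanned 120 kb and 7 windows, 13 regions consisted of 1 window, and the 53 regions of at least 10 windows held 998 of the windows. The highest shares of a chromosome's windows were 2.25% on chromosome 18, 2.15% on chromosome 14, 2.12% on chromosome 15 and 2.05% on chromosome 9. Chromosome 21 had the lowest share above 0, at 0.168%.

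Over the whole set, the WT mean z-score stayed near 0 from Bud onward and the omf201 mean rose between Bud and 24 hpf. At Shield the mean z-score over the 1417 windows was -0.418, -0.441, -0.412 and -0.411 in the WT samples and -0.343, -0.452, -0.467 and -0.479 in the omf201 samples. The genotypes overlapped at that stage, with a mean of -0.420 ± 0.0142 in WT and -0.435 ± 0.0627 in omf201 (SD over 4 samples per genotype). At Bud the WT samples lay at -0.104, -0.125, -0.136 and -0.119, and the omf201 samples at 0.0584, 0.0327, -0.0968 and 0.00790. Every omf201 sample at Bud was above every WT sample, although the third omf201 sample was only just above the highest WT sample. The Bud means were -0.121 ± 0.0135 in WT and 0.00056 ± 0.0681 in omf201 (SD over 4 samples per genotype). At 24 hpf the WT samples lay at 0.0128, 0.0245, -0.00965 and 0.0132, and the omf201 samples at 1.00, 1.07, 1.07 and 1.07. The 24 hpf means were 0.0102 ± 0.0143 in WT and 1.05 ± 0.0325 in omf201 (SD over 4 samples per genotype), and no sample of either genotype came near the other.

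**Figure D1:**
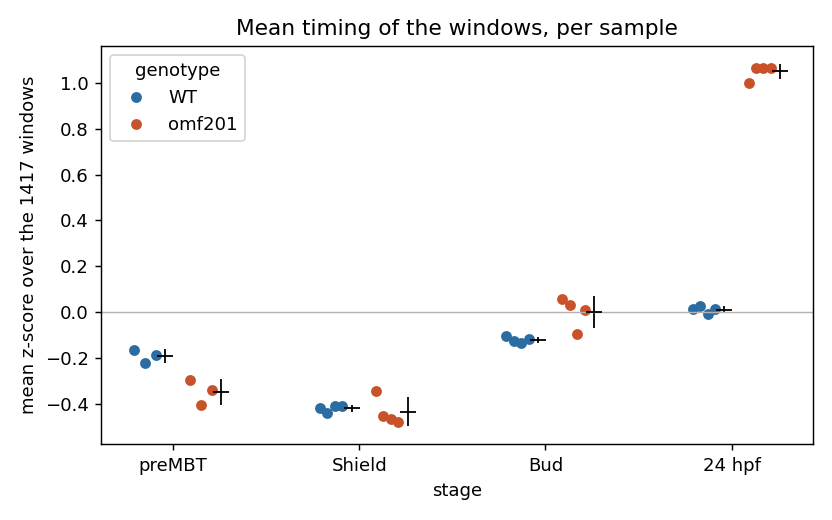
Mean z-score over the 1417 windows (vertical axis, no unit, higher is earlier) for each sample at each stage; blue points are WT, orange points are omf201, and crosses give the mean and SD of a group. The 4 omf201 samples at 24 hpf sit between 1.00 and 1.07, while the WT samples of that stage sit between -0.00965 and 0.0245.

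Per window, the median difference, omf201 minus WT, was 0.0032 at Shield (-0.0219 with the library pairs averaged), 0.163 at Bud and 0.975 at 24 hpf, where values ran from 0.8001 to 1.94. The limit of 0.3 at Bud was therefore not filled evenly, since 1145 of 1417 windows (80.8%) were above 0 there, against 51.7% of all windows. At 24 hpf, 469 windows were below 0.9 and 641 were above 1. Just inside the 24 hpf threshold lay a window at chr12:36270000-36330001 with a difference of 0.800126, and just outside it a window at chr1:15100000-15160001 with 0.799855. At Bud, a window at chr14:35240000-35300001 with 0.299718 was inside and a window at chr13:29400000-29460001 with 0.300518 was outside. At Shield, a window at chr14:37010000-37070001 with -0.299898 was inside and its neighbour at chr14:37030000-37090001 with -0.300181 was outside.

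**Figure D2:**
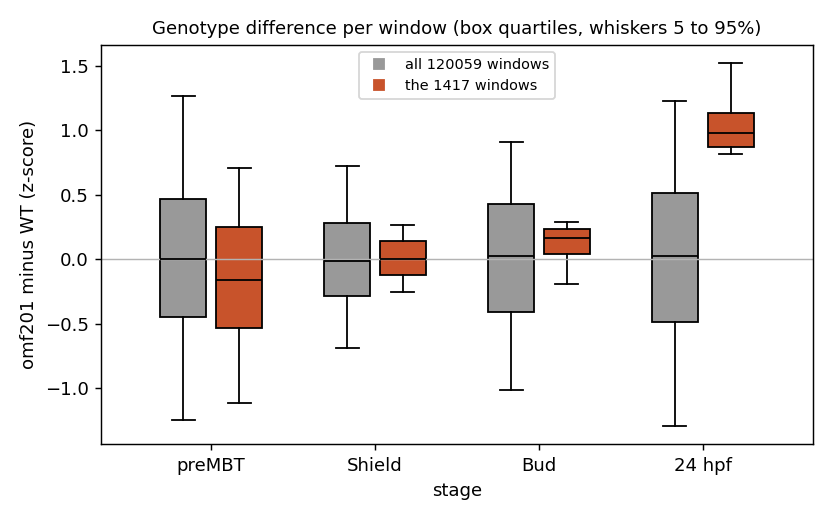
Difference in z-score per window, omf201 minus WT (vertical axis, no unit), at each stage for all 120059 windows (grey) and the 1417 windows of the set (orange); boxes give quartiles and median, whiskers the 5th to 95th percentile. The narrow orange boxes at Shield and Bud and the raised box at 24 hpf follow from the rule, and within the Bud limits the median is 0.163.

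A difference near 0 in the group means did not show that the genotypes were equal. The 95% interval of the difference was never wholly within 0.3 of 0, in 0 of 1417 windows at Shield and 0 of 1417 at Bud, since its median width was 0.673 at Shield and 0.759 at Bud. The upper bound at Bud passed 0.3 in 1259 windows and passed 0.8 in 2. The 24 hpf interval lay wholly above the Bud interval in 1306 windows and wholly above the Shield interval in 1403. These interval counts were not made over all windows. With the limma test and Benjamini-Hochberg adjustment over all windows, 0 members were called at Shield at an adjusted p under 0.05, against a background of 29.6% of all windows, and 0 at Bud, against 43.9%. At an unadjusted p under 0.05 in limma there were 30 members at Shield and 0 at Bud, against 49570 and 62698 of all 120059 windows. At 24 hpf 1416 were called, all of them higher, against a background of 73.3% of all windows called, 37.8% higher and 35.5% lower. The rule used all 3 contrasts, so nothing is read from these counts.

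Which windows met the rule depended on the scale of the profiles. A z-score divides each profile by its own spread, and the spread was smaller in omf201. Measured as the SD of log2 ratios over all windows, the spread at Shield was 0.12 for WT and 0.082 for omf201. It was 0.16 for WT against 0.099 for omf201 at Bud, and 0.21 against 0.16 by 24 hpf. When the rule was applied to log2 ratios, with the difference divided by the mean spread of both genotypes, 1297 windows met it, and 209 of them were in the set (14.7% of the set and 16.1% of the 1297). On unscaled log2 ratios limma called 499 of the 1417 windows at Shield, 418 of them higher in omf201, against backgrounds of 52.8% in either direction and 26.8% higher. At Bud it called 529, of which 458 were higher, against 57.4% and 29.2%. A test of the counts themselves with edgeR, without any G1 reference, called 367 at Shield, against a background of 29.1%, and 313 at Bud, against 35.3%. With 1 G1 reference for both genotypes, limma on z-scores called 349 at Shield, against 35%, and 306 at Bud, against 50.2%. The median log2 difference over the set was 0.015 at Shield, 0.013 at Bud and 0.17 at 24 hpf. Membership depended on that choice as well, since the authors built a reference for each genotype: with the common reference 1406 windows met the rule, and 588 of them were in the set (41.5% of the set). A total of 82 windows in 18 regions met the rule under both alternatives. The closeness of the group means before 24 hpf was thus imposed by the rule, and only on the scale of the deposited z-scores. At 24 hpf the log2 difference was above 0 in all 1417 windows. This is no separate support, since both scales come from the same smoothed ratios and the rule chose windows high in omf201.

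Between Bud and 24 hpf, most windows of the set became earlier in omf201, whereas WT moved in both directions. The median step, 24 hpf minus Bud, was 1.07 in omf201 and 0.18 in WT, with 10th to 90th percentiles of 0.20 to 1.81 and of -0.65 to 0.84. The omf201 step was larger in size than the WT step in 1179 windows (83.2%), compared with 61.0% of all windows and 74.3% of the other 15509 windows past 0.8 at 24 hpf. With limma and Benjamini-Hochberg adjustment, 1168 windows became earlier in omf201 and 19 became later, where the background was 54.9% in all, 26.7% earlier and 28.2% later. In WT, 606 windows became earlier and 350 later, where the background was 61.6% in all, 30.7% earlier and 30.8% later. In 606 windows both genotypes became earlier, against 21887 of all 120059 windows and 6540 of the other 15509 past 0.8. In 454 omf201 became earlier and the WT change was not called, against 9209 and 2979. Of the 350 windows that became later in WT, 108 became earlier in omf201, 19 became later, and 223 were not called there. Over all windows these numbers were 976, 22197 and 13819, and over the other windows past 0.8 they were 467, 1153 and 1897. These steps share their 24 hpf samples with the contrast that chose the windows, and their difference is fixed in sign by the rule. The interaction of genotype and stage was called in 1335 windows, each with the larger step in omf201, against a background of 26.4% in either direction and 13.1% in that direction.

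Counted by region, the omf201 step was above 0 in 139 of 149 regions. The WT step was above 0 in 86 regions and below 0 in 63. The set therefore contained regions in which both advanced by unequal amounts and regions in which WT was delayed and omf201 was not. In some, WT hardly moved while omf201 advanced, as in chr19:36050000-36260001, with steps of 0.0675 in WT and 1.56 in omf201. In 10 regions the omf201 step was below 0, and there both genotypes became later, WT by more.

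**Figure D3:**
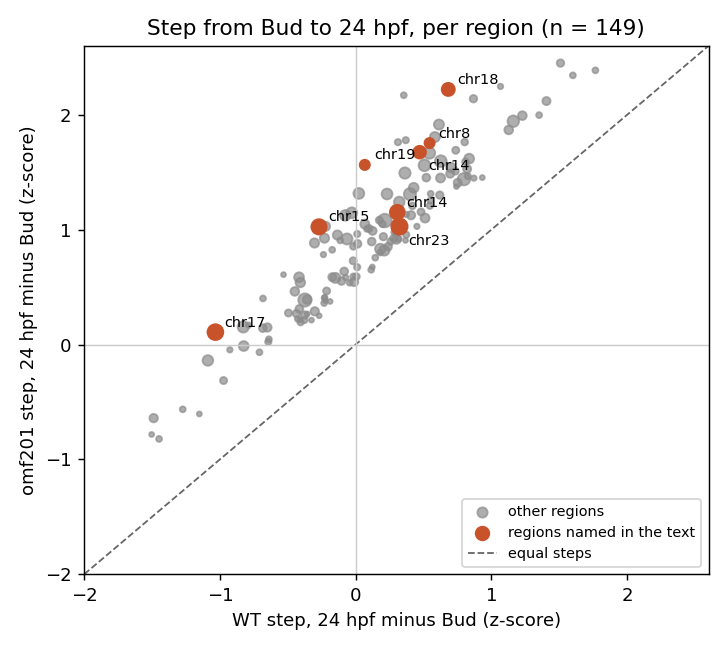
Step in z-score from Bud to 24 hpf in WT (horizontal axis) and in omf201 (vertical axis), no unit, with 1 point for each of the 149 regions, sized by its number of windows; orange points are the 8 regions named in the text and the dashed line marks equal steps. That all points lie above the line follows from the rule; their position along it shows that the WT step was below 0 in 63 regions and above 0 in 86.

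The windows did not come from a single timing class. At 24 hpf in WT, 516 windows in 68 regions were late (z-score below -0.5), 414 in 52 regions were in the middle, and 487 in 54 regions were early (above 0.5). These shares, 36.4%, 29.2% and 34.4%, lay near those of all windows, which were 34.5%, 31.2% and 34.3%. In the late class the median WT z-score went from -1.17 at Bud to -0.973 at 24 hpf, and that of omf201 from -1.10 to 0.0811. In the early class the WT median went from 0.813 to 1.06 and the omf201 median from 0.980 to 2.21. Windows that were early in WT were thus among the earliest of the omf201 profile, and 494 windows of the set (34.9%) were above 1.5 in omf201, against 9.72% of all windows and 35.7% of the other windows past 0.8.

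The longest region, chr23:5900000-6420001 on GRCz11 (the build in the submitters' processing notes; coordinates as the files give them), held 47 windows over 520 kb. At Bud its mean z-score was -0.00701, -0.366, -0.120 and 0.0361 in the WT samples and 0.0904, 0.0554, -0.225 and 0.129 in the omf201 samples. At 24 hpf the values were 0.289, 0.211, 0.254 and 0.0803 in WT and 1.04, 1.25, 1.04 and 0.826 in omf201. The genotypes overlapped at Bud and were apart at 24 hpf, by 0.832, which is close to the threshold. With the common G1 reference 42 of its 47 windows still met the rule, and on the log2 scale 0 did.

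The region chr17:42020000-42530001, with 44 windows over 510 kb, had the largest fall in WT among the 8 named regions. At Bud its z-score was 1.22, 1.03, 1.39 and 1.14 in WT and 1.27, 1.11, 1.17 and 1.20 in omf201, so that the region was early in both genotypes and their ranges overlapped. The samples of 24 hpf lay at 0.0927, 0.170, 0.203 and 0.185 in WT and 1.26, 1.20, 1.34 and 1.40 in omf201. WT thus fell by 1.03, from 1.20 ± 0.149 to 0.163 ± 0.0487, while omf201 went from 1.19 ± 0.0662 to 1.30 ± 0.0913 (SD, n = 4 each). The S over G1 ratio behind these scores was 1.11 to 1.15 in WT at Bud and 1.01 to 1.03 at 24 hpf, whereas in omf201 it was 1.07 to 1.09 and then 1.13 to 1.16. The region lay inside a stretch of 113 windows past 0.8 that spanned 1240 kb. With the common G1 reference 22 of its 44 windows met the rule, and 8 did on the log2 scale. Its G1 counts were called as lower in omf201 in 3 windows at 24 hpf, and its timing as later in omf201 in 5 windows at preMBT.

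The region chr18:38440000-38800001, with 29 windows over 360 kb, had the second largest difference among regions of at least 10 windows. At Bud it lay at 0.125, -0.0976, -0.160 and 0.00572 in WT and at 0.176, 0.349, -0.714 and 0.276 in omf201, with 1 omf201 sample far below the others. That sample, replicate 3, was the shallowest of all libraries, at 5.09 M counts. When it was left out, 1134 windows of the set still met the rule, the fewest for any library left out. The 24 hpf samples lay at 0.573, 0.792, 0.569 and 0.670 in WT and at 2.12, 2.13, 2.53 and 2.20 in omf201. Both genotypes advanced, WT by 0.683 and omf201 by 2.22, and in the omf201 profile of 24 hpf a peak stood over the region. Without that low Bud sample, the omf201 samples at Bud would all be above the WT samples. All 29 windows met the rule with the common G1 reference and 11 did on the log2 scale.

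The largest mean difference, 1.77, was in chr19:36050000-36260001, a region of 16 windows over 210 kb that was late in WT from Shield on. At preMBT the WT libraries lay near the genome mean, at 0.325, -0.194 and -0.00601. At 24 hpf its z-score was -1.49, -1.50, -1.56 and -1.48 in WT and 0.399, 0.143, 0.250 and 0.256 in omf201. At Bud it was -1.57, -1.55, -1.43 and -1.75 in WT and -1.28, -1.11, -1.26 and -1.57 in omf201, and the genotypes overlapped in their ranges. The S over G1 ratio at Bud did not overlap, at 0.8289 to 0.847 in WT and 0.891 to 0.929 in omf201, and the log2 difference of 0.12 at Bud compares with 0.40 at 24 hpf. G1 counts differed here as well, with 3 windows called at 24 hpf and 2 at Bud. With the common G1 reference the Bud difference was 0.999 and the 24 hpf difference 2.26. That reference also gave 0.887 for Shield and 2.00 for preMBT, where the authors' references gave -0.0671 and -0.460. The difference above 0 with the common reference was thus not confined to Bud and 24 hpf. G1 counts of the region were higher in omf201, by a mean log2 difference of 0.108 (Bud) and 0.0721 (24 hpf). Their part in these differences was not tested. Under either alternative, 0 of the 16 windows met the rule.

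The difference was 1.47 in chr8:15500000-15710001, the third region named for its difference, with 16 windows over 210 kb. At Bud its z-score was -1.09, -1.17, -1.14 and -1.35 in WT and -1.01, -0.842, -0.918 and -0.947 in omf201. The genotypes thus did not overlap at Bud, even though their means were within 0.3, while at Shield they did overlap. By 24 hpf the z-score was -0.567, -0.682, -0.713 and -0.607 in WT and 0.971, 0.759, 0.968 and 0.607 in omf201. Again 0 of its windows met the rule under either alternative.

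The region chr15:36650000-37110001, with 41 windows over 460 kb, was early in both genotypes at Bud. Its z-score there was 0.919, 1.19, 0.920 and 1.27 in WT and 1.61, 1.20, 0.767 and 1.51 in omf201. By 24 hpf it was 0.618, 0.983, 0.742 and 0.879 in WT and 2.33, 2.17, 2.48 and 2.21 in omf201, which made it a summit of the mutant profile. WT moved by -0.270 and omf201 by 1.02. Its G1 counts were called in 4 windows at 24 hpf, and 4 of 41 windows met the rule with the common G1 reference and 13 on the log2 scale.

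Chromosome 14 held the remaining 2 long regions. The region chr14:43640000-44090001, with 38 windows over 450 kb, was late at Bud, at -1.65, -1.86, -1.88 and -1.77 in WT and at -1.68, -1.80, -1.34 and -1.92 in omf201. By 24 hpf it lay at -1.37, -1.42, -1.56 and -1.58 in WT and at -0.649, -0.516, -0.519 and -0.443 in omf201, so it became less late in omf201 without becoming early. The S over G1 ratio at Bud was 0.792 to 0.8286 in WT and 0.865 to 0.904 in omf201, and 26 of its windows met the rule with the common G1 reference and 2 on the log2 scale. The region chr14:4790000-5180001, with 27 windows over 390 kb, went from -0.418 ± 0.124 at Bud to 0.0539 ± 0.174 at 24 hpf in WT and from -0.343 ± 0.5003 to 1.33 ± 0.120 in omf201 (SD over 4 samples per genotype). Of its windows, 10 met the rule with the common G1 reference and 8 on the log2 scale.

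**Figure D4:**
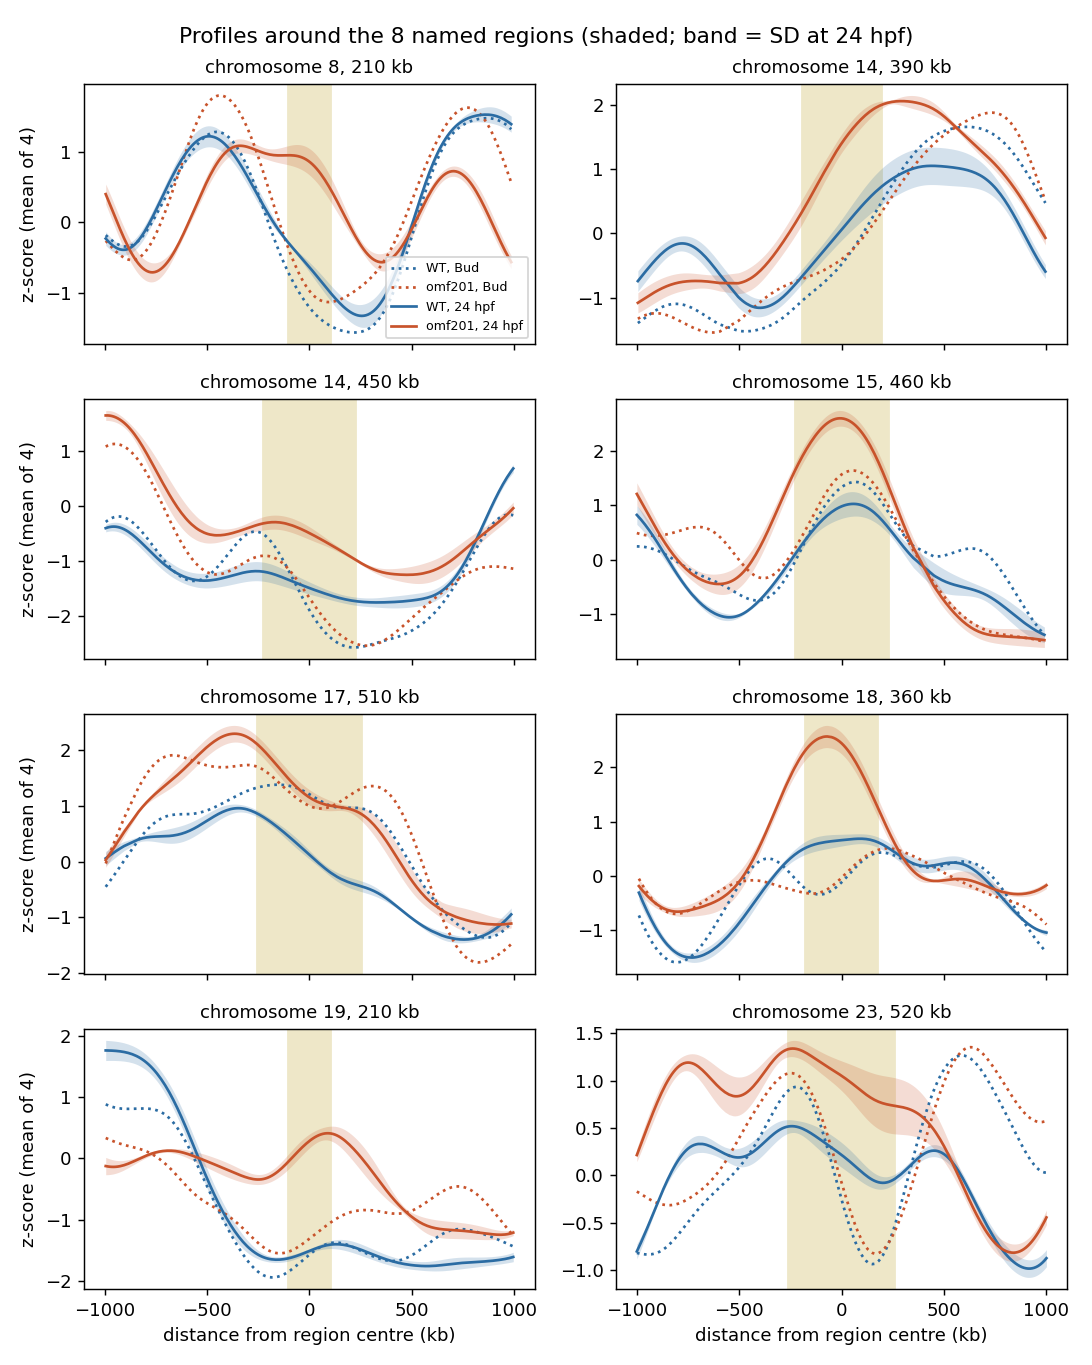
Mean z-score (vertical axes, no unit, mean of 4 samples) against the distance in kb from the centre of each of the 8 named regions (horizontal axes), for WT (blue) and omf201 (orange) at Bud (dotted) and 24 hpf (solid, with a band of 1 SD); the region is shaded. On chromosome 17 the solid WT line falls away from the dotted lines inside the region, and on chromosome 18 the solid omf201 line forms a peak where the dotted lines stay near 0.

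Most of the regions were parts of longer stretches in which the mutant was earlier at 24 hpf. Of 408 stretches of touching windows past 0.8, 133 held windows of the set, and in those the set made up a median of 21.4% of the stretch. In 976 windows (68.9%) a window with a Bud difference of at least 0.3 lay within 200 kb, compared with 51.3% of the 21025 windows near 0 at Shield and Bud that were past 0.8 in neither direction. By region, 124 of 149 had such a window within 200 kb on at least 1 side. In 67 regions the Bud difference passed from 0.3 or above on 1 side to -0.3 or below on the other, so that the Bud profiles crossed within the region or its flanks. Only 3 of 149 regions had no Bud difference of 0.3 or more in size within 200 kb. These counts by region have no background. By window, neighbours past 0.3 in both directions at Bud lay within 200 kb of 25.6% of the set and 25.2% of the same 21025 windows. A Bud difference of -0.3 or below lay as near to 38.5%, against 50.8%. Neither kind lay near 18.2%, against 23.1%. For the 1843 windows below -0.8 at 24 hpf and near 0 at Shield and Bud, the order was reversed. Of those, 36.0% lay near a Bud difference of at least 0.3 and 62.8% near one of -0.3 or below.

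In 12 stretches every window belonged to the set. These were picked out after their values were seen, and the longest was chr12:24210000-24580001, with 32 windows over 370 kb. There the z-score at Bud was -1.13, -1.19, -1.49 and -1.36 in WT and -0.900, -1.08, -1.23 and -1.41 in omf201. At 24 hpf it was -1.13, -1.12, -0.926 and -1.14 in WT and -0.145, 0.142, -0.197 and -0.104 in omf201. This domain was late at Bud in both genotypes, remained late in WT, and reached the genome mean in omf201. With the common G1 reference 31 of its 32 windows met the rule, and on the log2 scale 0 did, where the Bud difference was 0.091 and the 24 hpf difference 0.23. The next, chr1:35630000-35900001 with 22 windows, became earlier in both genotypes, from 0.389 ± 0.167 to 1.55 ± 0.130 in WT and from 0.563 ± 0.292 to 2.51 ± 0.130 in omf201 (SD over 4 samples per genotype), and 0 of its windows met the rule under either alternative.

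Local summits of the omf201 profile at 24 hpf lay within 50 kb of 270 windows (19.1%), in 46 regions, compared with 10.99% of all windows and 18.9% of the other windows past 0.8. Summits of the WT profile at 24 hpf lay as close to 12.6%, against 11.1% of all windows. Valleys of the omf201 profile lay within 50 kb of 2.33%, against 10.8% of all windows. Since a window that is high in omf201 is more often near a summit, this is a description of the rule's own contrast.

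Windows in which omf201 was later at 24 hpf by more than 0.8 and near WT at Shield and Bud, the opposite case, numbered 1843, or 7.59% of the windows near 0 at both stages. They differed from the set in where they lay in the WT profile at 24 hpf, with 81.0% early and 0.651% late, against 34.4% and 36.4%. The omf201 step was again the larger in size in most of them, in 78.9%. The 24 hpf samples of both genotypes chose both sets, so these values are a description only.

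At preMBT, a stage the rule did not use, the windows were called in a smaller share than all windows when the authors' references were used. With the common G1 reference the share was larger, at 21.1% against 18.3%. The authors' reference of each genotype is shared between preMBT and the stages that the rule used. The mean z-score over the set was -0.167, -0.224 and -0.185 in the WT libraries and -0.295, -0.407 and -0.339 in the omf201 libraries, so every omf201 library was below every WT library. The means were -0.192 ± 0.0289 in WT and -0.347 ± 0.0568 in omf201 (SD over 3 libraries per genotype). A difference above 0 was found in 550 windows (38.8%), against 50.2% of all windows and 52.3% of the other windows past 0.8 at 24 hpf. With limma and Benjamini-Hochberg adjustment, 98 of 1417 windows (6.92%) were called, against a background of 12.7%, with 32 earlier and 66 later in omf201, against backgrounds of 6.47% and 6.27%. The 98 windows lay in 17 regions. The precision at this stage was low, with a median standard error of 0.399 per window. This error leaves out that of the G1 reference, which all 3 libraries of a genotype share. The libraries may also not be separate samples, so the calls may not carry over to other embryos. The count also turned on the G1 reference. It was 299 with the common reference, of which 181 were earlier, against backgrounds of 18.3% and 9.64%. It was 1 with disjoint sets of G1 libraries for each sample, against 1.43%. In edgeR's test of the counts without a reference it was 80, of which 54 were higher in omf201, against 5.5% and 2.54%. Without a G1 reference, a higher count is not a measure of timing alone. The balance also turned with the authors' references when omf201 replicate 2 was left out, to 35 earlier and 29 later. Whether the set was on balance earlier or later in omf201 at preMBT was therefore not settled by these libraries.

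The largest group of preMBT calls was in chr14:4790000-5180001, where 22 of 27 windows were later in omf201. The z-score of the region was 0.897, 1.64 and 1.61 in the WT libraries and -0.184, -0.559 and 0.191 in the omf201 libraries, without overlap. With the authors' references the region was thus later in omf201 at preMBT and earlier at 24 hpf. In chr11:22630000-22780001 all 10 windows were later, with 0.230, 0.572 and 0.914 in WT and -0.881, -0.399 and -1.08 in omf201. The opposite was seen in chr9:14240000-14400001, where 10 of 11 windows were earlier, with -1.01, -0.709 and -1.01 in WT and 0.905, -0.00953 and 0.182 in omf201. In this chromosome 9 region G1 counts were lower in omf201, by a mean log2 difference of -0.061 at Bud and -0.074 at 24 hpf. At 24 hpf 2 of its windows were called as lower. G1 counts are the denominator of the preMBT ratio, and their part in this difference was not tested. The adjusted p of limma in the called windows of the chromosome 14 region ranged from 0.000334 to 0.0457, without the error of the shared G1 reference. With the common G1 reference the preMBT difference of that region fell in size from -1.57 to -0.509.

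The G1 counts measured read depth outside S phase. At 24 hpf edgeR's quasi-likelihood test called 66 of 1417 windows (4.66%), against a background of 3.67%, and at Bud 23 (1.62%), against 2.7%. Of those, 53 were higher in omf201 at 24 hpf and 20 at Bud, against backgrounds of 1.91% and 1.16%. The other 13 and 3 were lower, against 1.76% and 1.54%. In chr2:19490000-19620001 all 6 windows were called at both stages. The G1 count there, relative to the mean window of its library, was 0.988, 0.987, 1.05 and 1.01 in WT at 24 hpf and 1.34, 1.19, 1.22 and 1.23 in omf201. At Bud it was 0.977, 0.940, 1.06 and 0.996 in WT and 1.23, 1.17, 1.16 and 1.22 in omf201, so the genotypes did not overlap at either stage. In chr10:31540000-31810001, 14 of 22 windows were called at 24 hpf and 7 at Bud, and in chr3:57820000-58070001 10 of 18 were called at 24 hpf. The 71 windows called at either stage made up 5.01% of the set, against 5.20% of all windows. Without them the medians were 0.972 for the 24 hpf difference, 1.07 for the omf201 step and 0.19 for the WT step. These medians are a description only, because the rule holds the 24 hpf difference of every remaining window above its threshold. Windows whose G1 counts differed without being called also remained. The part of G1 counts in the timing differences was therefore not tested by this exclusion.

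Position and width of the windows were compared with those of all windows. Windows wider than 60 kb made up 6.49% of the set and 9.22% of all windows. Windows within 1 Mb of a chromosome end made up 2.26% and 2.66%. Only 1 window of the set (0.0706%) lay within 100 kb of the end of a stretch over which the profiles were smoothed against 1.01% of all windows. The median G1 count relative to the library mean was 1.01 in the set and 1.00 over all windows. Genes, base composition and sequence of the regions were not analysed here.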

How the data were processed

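Whole-genome sequencing libraries were assigned to groups from their titles, by genotype, stage and sorted fraction. Per the submitters' processing notes, fastp, BWA and Picard were used and the build was GRCz11; versions and settings are not given in the sources used here, and the series' design text names the RepliTimer pipeline. The deposited counts are whole reads per window, without normalisation (120082 windows, 49 libraries). Each deposited ratio equals the mean-scaled count of a library over a G1 reference, which is the median of 8 mean-scaled G1 libraries of that genotype, 4 from Bud and 4 from 24 hpf. Cubic spline smoothing (penalty 1e+16), interrupted at gaps wider than 200 kb (97 stretches), gives the deposited smoothed signal. From this come the deposited log2 values and, after standardising each library over 120059 windows, the deposited z-score, a unitless score. These steps were inferred by recomputation from the counts, which missed the deposited values by at most 4.97e-07 (ratio, relative), 6.93e-07 (smoothed), 7.19e-07 (log2) and 1.85e-05 (z-score).

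The windows and everything compared here were chosen with earlier results of these data known. The rule used every deposited column, with Shield libraries unmerged, and so did its alternatives except the one that averaged the Shield pairs. The z-score differences per window, and those of regions with the common reference, were also taken unmerged. All other values at Shield counted as 1 sample each pair of libraries whose counts over 1-Mb bins gave a chi-square per degree of freedom under 1.1 where other pairs of the group differed more. The 3 such pairs gave 0.963 to 1.07 (chi-square p = 0.0425 to 0.831), the 6 preMBT pairs 0.912 to 1.10 and the other 70 pairs 1.29 to 6.69. This limit was set after these values were seen, in place of a p of at least 0.05, which 1 of the 3 pairs missed. The preMBT libraries were kept as 3 samples per genotype, although all their pairs were under the limit. With every Shield library as its own sample the count of calls at Shield was also 0.

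Depth gave 288 to 1824 counts per window, a counting error of 2.34% to 5.89% before smoothing, which covers counting only. Timing was tested with limma 3.58.1 on z-scores, with only the groups compared in each fit. G1 counts were tested in edgeR 4.0.16 by quasi-likelihood (TMM, no filter), with DESeq2 1.42.0 as an alternative. Calls were made at a Benjamini-Hochberg adjusted p under 0.05 over all windows, and members were counted afterwards. Intervals are at 95%, from limma's standard errors. The tests were tried on simulated data, where preMBT recovered large shifts only. Far fewer windows were shifted there than were called in the data, which made the adjusted cut stricter. The sizes recovered therefore do not carry over to the calls made here. Given the standard error at preMBT, few calls there still say little about small differences. Regions named in full are the 5 longest and, among those of at least 10 windows, the 3 others with the largest mean difference. Computation used R 4.3.3, Python 3.11.15, numpy 2.4.6, scipy 1.17.1, pandas 2.3.3 and matplotlib 3.10.9. Gene lists and base composition, planned for the windows, were not analysed, since no genome or annotation of GRCz11 was used here.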

Additional observations from a re-analysis of the deposited data

Results flagged for a closer look

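Over the whole set, omf201 replicate 1 at 24 hpf had a mean z-score of 1.00, below the other omf201 samples at 1.066 to 1.068, and above every WT sample. In chr15:36650000-37110001 the averaged omf201 replicates 1 and 2 at Shield lay at 0.540, above the other omf201 samples at -0.129 to -0.0456. In chr18:38440000-38800001 omf201 replicate 3 at Bud lay at -0.714, below the other omf201 samples at 0.176 to 0.349. Each stood apart by Dixon's criterion at 95% for 4 samples, with a gap of 0.968, 0.875 and 0.837 of the group's range. Of 54 groups of 4 values examined, 3 (5.56%) held such a sample, where chance alone gives about 5%.

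The change from Bud to 24 hpf differed between genotypes in 1335 of 1417 windows by the interaction term of limma, a difference whose direction the choice of windows fixed.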

How the results depend on the processing

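The number of windows that met the rule was 2805 and 641 with a 24 hpf threshold of 0.6 and 1.0, and 594 and 2740 with a limit of 0.2 and 0.4 at Shield and Bud. Leaving out each of 27 libraries gave 1362 to 1618 windows, of which 1134 to 1379 were in the set, and averaging the Shield pairs gave 1414, with 1327 in the set. Calls within the set at Shield rose from 0 to 499 on log2 values, 349 with a common G1 reference and 367 in edgeR's test of counts, and ranged from 0 to 49 when samples were left out, with 49 without omf201 replicates 1 and 2 and 15 without omf201 replicate 3. At Bud the same alternatives gave 529, 306 and 313, and 0 to 20 when samples were left out, with 15, 20 and 8 without omf201 replicates 2, 3 and 4. At preMBT the 98 calls became 299 with the common and 1 with disjoint G1 references, and 45 to 67 when a library was left out, with 67 without omf201 replicate 1, 45 without omf201 replicate 3 and 55 to 64 without the other libraries in turn. For G1 counts DESeq2 called 11 at Bud and 41 at 24 hpf, where edgeR called 23 and 66, and leaving out a library gave 16 to 25 and 43 to 63, with 43 without omf201 replicate 2 or 4. With the common G1 reference the 24 hpf difference was 1.495 for chr14:4790000-5180001, 1.70 for chr15:36650000-37110001, 1.06 for chr17:42020000-42530001 and 2.26 for chr19:36050000-36260001. The cause of these shifts was not tested. Under the other 132 of 158 alternatives the counts stayed within 1.5 times the value given. The 24 hpf, step and interaction counts were among these, with 1416 to 1417, 853 to 950 (WT), 1138 to 1185 (omf201) and 1228 to 1326 when samples were left out. No balance of higher and lower calls changed direction, apart from those at preMBT and at Shield. At preMBT the balance turned from 32 and 66 to 181 and 118 with the common reference, to 54 and 26 in edgeR's test, and to 35 and 29 without omf201 replicate 2. At Shield it was 418 higher and 81 lower in omf201 on log2 values, 263 and 86 with the common reference, and 308 and 59 in edgeR's test. It was 14 and 35 without omf201 replicates 1 and 2, and 7 and 8 without omf201 replicate 3.

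Replicate numbers did not pair the samples: deviations of same-numbered samples correlated at -0.112 to 0.183. With the replicate block the counts were 96 at preMBT, 0 at Bud, 1417 at 24 hpf, 916 and 1184 for the WT and omf201 steps, and 21 and 58 in G1 at Bud and 24 hpf, each within 1.5 times the count without it. Leaving out windows with a mean count under 50 changed no G1 count. Bud G1 libraries were shallower, at 5.69 to 12.3 M (mega) counts, than those of 24 hpf, at 14.9 to 23.8 M, and the effect of this gap on the G1 counts of calls was not tested.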
